A study of Mus musculus with 12 samples.

Results

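Integrins are receptors that hold cells to matrix and to other cells. Here 10 integrin subunit genes that macrophages use were described in M2-like polarized bone marrow-derived macrophages (BMDM) kept with or without interferon beta (IFNβ), namely Itgax, Itgam, Itgal, Itgad and Itgb2, Itga4, Itga6 and Itgb1, and Itgav and Itgb5. They were taken by symbol from the 56748 genes of the count table, all 10 were found once, and all 10 were among the 15033 genes that passed the filter on low counts. The 10 symbols were listed by name, selected on their known roles and with the measured levels and IFNβ differences of these libraries in view, and no threshold was set. Their values in the comparisons with and without IFNβ are therefore given as a description, with no p, and calls among them are only counted.

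The macrophages were grown from bone marrow of wild-type C57BL/6J mice with M-CSF (20 ng/mL) and were all given IL4 (10 ng/mL) for 48 h. The study's methods give female mice, bought when 10 to 12 weeks old, and the labels give no age for the marrow donors. The BMDM were then kept for 72 h in 1 of 4 conditions, with 3 libraries each from 3 mice per condition. In the first, untreated control, nothing was added to the medium. In the second, eGFP supernatant, the medium held supernatant of YUMM5.2 eGFP cells, a mouse melanoma line with a lentiviral, doxycycline (Dox)-inducible eGFP. In the third, Ifnb1eGFP supernatant, it held supernatant of YUMM5.2 cells whose inducible vector carries Ifnb1 with eGFP, diluted to 1500 pg/mL IFNβ, and the eGFP supernatant was diluted by the same ratio. In the fourth, rIFNβ, it held recombinant IFNβ at the same concentration. Both melanoma cultures had been given 1 μg/mL Dox for 72 h, so that tumor cell products and Dox carried over cannot be told apart in the comparison of eGFP supernatant with untreated control. Nothing in the sources says what the replicate number stands for, so p-values measure only the spread between these libraries.

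Library totals ran from 31526004 to 45348410 counts. The 8 macrophage markers listed summed to 13000 to 14100 CPM (counts scaled to the library total) in untreated control, 16700 to 17200 CPM in eGFP supernatant, 10200 to 10500 CPM in Ifnb1eGFP supernatant and 9620 to 9770 CPM in rIFNβ. The largest part of this sum was Lyz2, at 9415, 12400, 4111 and 3472 CPM in that order of conditions. Adgre1 (mean 1496 to 1775 CPM over the 4 conditions) and Csf1r (1045 to 1145 CPM) were high in each condition. In the same order Cd14 was at 299, 316, 184 and 154 CPM, Fcgr1 at 52.6, 83.0, 1199 and 1155 CPM, and Aif1 at 14.3, 16.9, 130.0 and 132 CPM. Cd68 had 36867 to 57068 counts in a library without IFNβ and 57953 to 81728 with it. Mertk had 3714 to 5269 and 5014 to 7052, and Adgre1 47802 to 66100 and 60842 to 79192. The markers listed thus did not all move as their sum did. The 4 M2-like markers summed to 738 to 887, 844 to 960, 998 to 1020 and 825 to 956 CPM in the 4 conditions. Of these Mrc1 stood at 660 to 825 CPM, whereas Arg1 was under 1 CPM in all 4 conditions (0.261 to 0.662 CPM). Chil3 had 1989 to 3246 counts in a library without IFNβ and 3575 to 5855 with it. Retnla overlapped, with 1869 to 2925 and 1908 to 2645 counts. The T and NK cell markers summed to at most 0.577 CPM in any library, and the melanoma markers to at most 0.810 CPM with Tyrp1 at 0. The 6 neutrophil markers summed to 26 to 31.7 CPM without IFNβ and 47.9 to 54.4 CPM with it, most of it Csf3r (22.0, 26.4, 51.0 and 49.9 CPM), with Ly6g at 0 to 0.0427 CPM. S100a8 went the other way, with 167 to 196 counts in a library without IFNβ and 3 to 21 with it. S100a9, Elane and Mpo had at most 10 counts in any library. The 4 fibroblast markers summed to 25.5 to 70.1 CPM, and of these Col1a1 was at 16.6, 16.8, 8.24 and 7.90 CPM. The other markers of this list overlapped in counts per library without and with IFNβ. Col1a2 had 452 to 1253 and 657 to 1008 counts, Col3a1 93 to 289 and 85 to 192, and Pdgfrb 32 to 58 and 33 to 73. The part of these markers in the results was not tested. One library stood apart in its interferon-stimulated genes. In eGFP supernatant replicate 2 the 8 genes listed for this summed to 952 CPM, beside 276 and 185 CPM in the other 2 libraries of that condition, 176 to 261 CPM in untreated control, and 10200 to 11300 CPM in the 6 libraries with IFNβ. Without it the same number of the 10 integrin genes (8) passed the threshold for Ifnb1eGFP against eGFP supernatant, and values that moved are given beside their gene.

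Each integrin is a pair of 1 alpha and 1 beta chain, and the pair decides which ligand is held. The beta2 chain (Itgb2, CD18) is found on leukocytes and pairs with 4 alpha chains, alphaL (Itgal, CD11a), alphaM (Itgam, CD11b), alphaX (Itgax, CD11c) and alphaD (Itgad, CD11d). These pairs bind ICAMs, fibrinogen and the complement fragment iC3b, and they serve adhesion, migration and phagocytosis. The alpha4 and alpha6 chains pair with beta1 (Itgb1) to hold VCAM-1 and fibronectin, or laminin, and the alphaV chain (Itgav) pairs with beta1, beta3, beta5, beta6 or beta8 to hold vitronectin, fibronectin and the latent form of TGFβ. Inside the cell, talin and kindlin bind the beta tails and switch integrins on.

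With IFNβ most of the 10 genes were lower. In Ifnb1eGFP against eGFP supernatant 8 of 10 lay past the threshold set for all genes, an adjusted p of at most 0.05 in edgeR's quasi-likelihood test, as did 55.1% of all genes tested. Of these, 7 were lower (25.0% of all genes were called lower) and 1, Itgav, was higher (30.1% were called higher). In rIFNβ against untreated control all 10 lay past it (55.3% of all genes), 9 lower (24.6%) and 1 higher (30.7%). The 3 libraries with IFNβ and the 3 without did not overlap for 8 of 10 genes in supernatant (59.0% of all genes did not overlap) and for 10 of 10 with the recombinant protein (66.1%). The median log2 fold change of the 10 was -0.84 and -0.95, beside 0.03 and 0.04 for all genes tested. Since the genes were chosen with these differences known, these counts are no test of them and nothing is read from the shares. Itgad, moreover, passed the filter on low counts mainly through libraries without IFNβ. Fewer cells of a type and less RNA per cell cannot be told apart in bulk libraries.

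**Figure D1:**
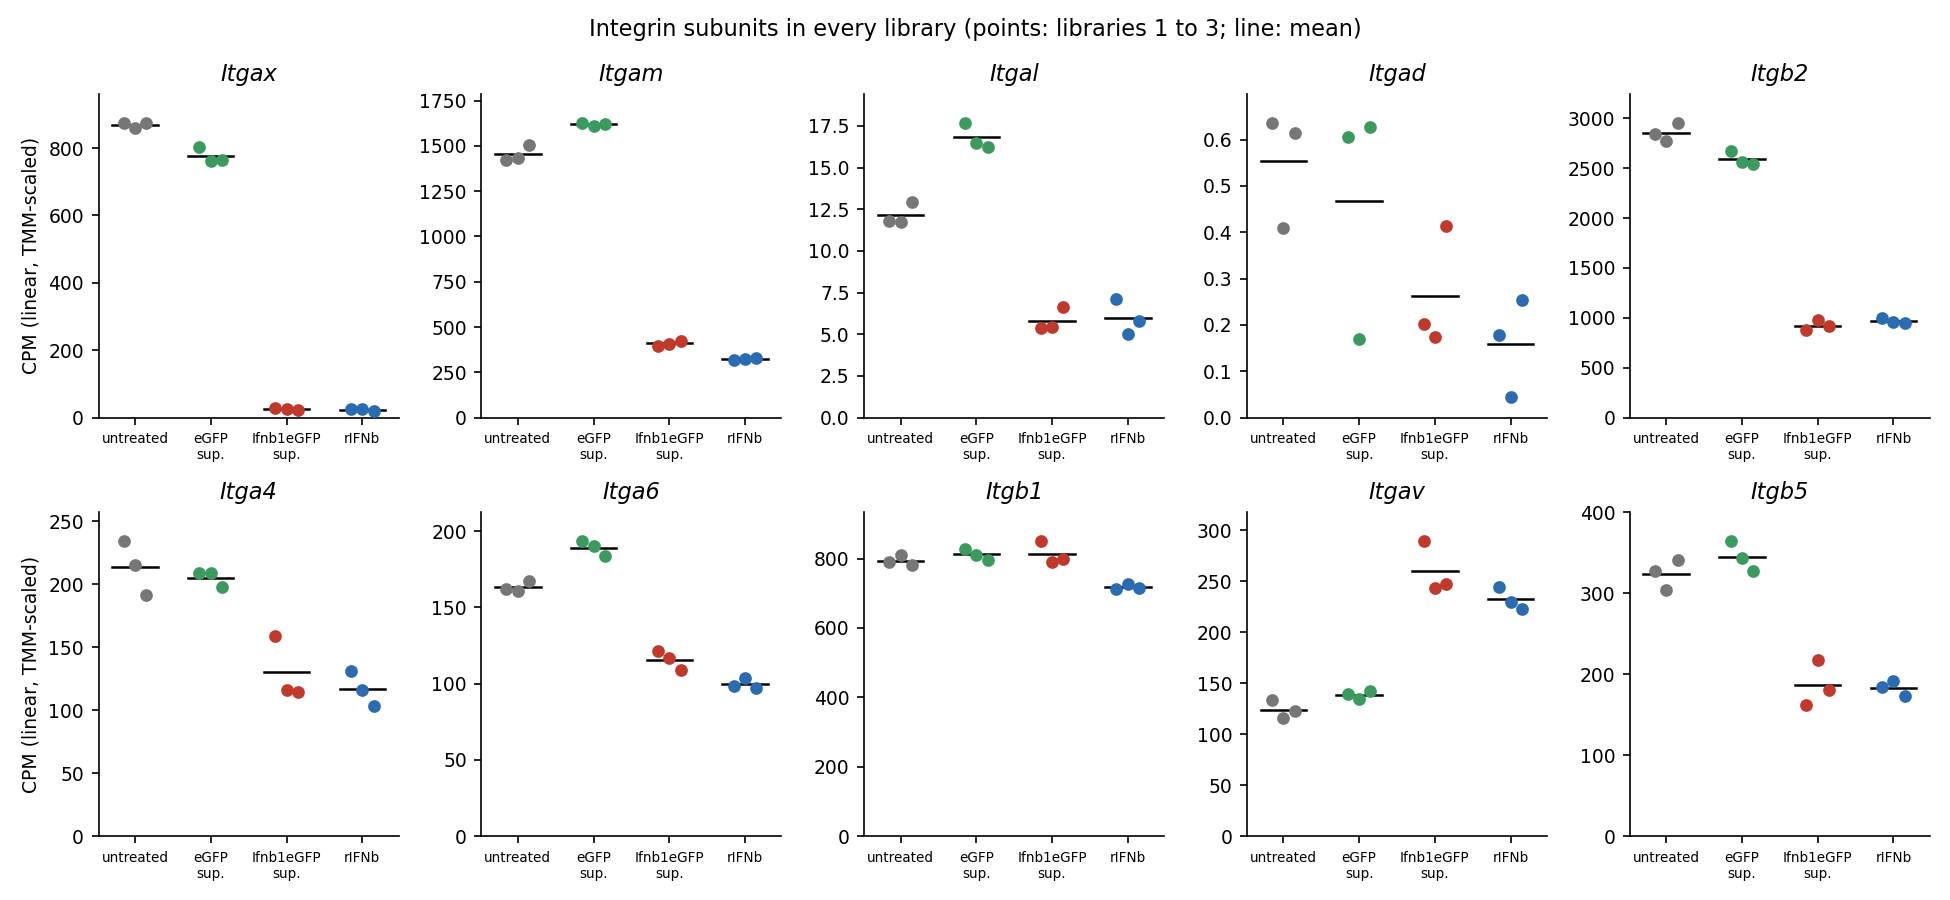
Level of each of the 10 integrin genes in CPM (linear axis from 0) in each of the 12 libraries, by condition, with the mean of 3 as a line. Itgax lies at 20.8 to 27.5 CPM in the 6 libraries with IFNβ and at 760 CPM or more in the 6 without it, Itgb1 stays between 714 and 850 CPM throughout, and Itgav is the one gene that is higher in all 6.

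Itgax, the gene of the alphaX chain (CD11c) and a marker of both dendritic cells and some tissue macrophages, showed the widest difference of the 10. Its level was 874, 858 and 874 CPM in untreated control, 804, 760.5 and 764 CPM in eGFP supernatant, 27.5, 26.4 and 22.8 CPM in Ifnb1eGFP supernatant, and 24.6, 24.5 and 20.8 CPM in rIFNβ. The lowest library without IFNβ thus stood far above the highest with it. The log2 fold change was -4.93 (SE 0.0884) in supernatant, a 30.4-fold lower level, and -5.22 (SE 0.0897) for the recombinant protein, a 37.3-fold lower level. Without eGFP supernatant replicate 2 the first was -4.94. The sum of the 6 dendritic cell markers listed was 1.56 to 2.03 CPM in the libraries without IFNβ and 0.348 to 0.733 CPM in those with it. Most of this was Zbtb46 (1.36, 1.40, 0.277 and 0.289 CPM in the 4 conditions), followed by Clec9a (0.338, 0.383, 0.129 and 0.288 CPM). The other 4, Flt3, Ccr7, Xcr1 and Siglech, did not pass the filter and had means of at most 0.0652 CPM in each condition. The part of these markers in the lower Itgax was not tested.

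Itgam codes for alphaM (CD11b), the alpha chain of complement receptor CR3. The gene stood at 1424, 1431 and 1507 CPM in untreated control and at 1627, 1612 and 1622 CPM in eGFP supernatant. It was at 397, 405.5 and 425.5 CPM in Ifnb1eGFP supernatant and at 317, 321 and 330.5 CPM in rIFNβ. All 4 conditions kept apart, in the order eGFP supernatant, untreated control, Ifnb1eGFP supernatant, rIFNβ. The log2 fold change was -1.99 (SE 0.0423) in supernatant and -2.17 (SE 0.0426) for rIFNβ, 3.96-fold and 4.5-fold lower levels. A second annotated gene, Gm49368, lies over Itgam on the same strand and reaches to 1.34 kb before Itgax. It took 2827 counts in all, 0.639% of those of Itgam, and its mean was 9.71, 11.5, 1.35 and 1.72 CPM in the 4 conditions. How the authors' counting split reads between these genes is not known, and the values of both are uncertain to that extent.

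Itgb2, the beta chain that all 4 of these alpha chains need, was at 2840, 2770 and 2953 CPM in untreated control and at 2675, 2561 and 2542 CPM in eGFP supernatant. With IFNβ it was at 873.5, 973 and 916 CPM in supernatant and at 995, 963 and 946 CPM as recombinant protein. The groups with and without IFNβ did not overlap, while the 2 conditions with IFNβ did. The log2 fold change was -1.49 (SE 0.0487) and -1.56 (SE 0.0488), or 2.81-fold and 2.95-fold lower levels.

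Itgal, whose chain forms LFA-1, was a far less abundant gene. It stood at 11.8, 11.7 and 12.9 CPM in untreated control, 17.7, 16.5 and 16.3 CPM in eGFP supernatant, 5.36, 5.46 and 6.62 CPM in Ifnb1eGFP supernatant, and 7.12, 5.02 and 5.81 CPM in rIFNβ. Again the libraries with IFNβ were all lower than those without. Its log2 fold change was -1.53 (SE 0.120) in supernatant and -1.03 (SE 0.121) for rIFNβ. Itgal belongs to the list of M1-like genes that the study used, and it was lower with IFNβ here.

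Itgad was close to the limit of detection, with 2 to 26 counts in a library and 168 counts in all. Counts were 20, 14 and 26 in untreated control and 24, 7 and 25 in eGFP supernatant. They were 8, 7 and 19 in Ifnb1eGFP supernatant and 6, 2 and 10 in rIFNβ. The gene thus passed the filter on low counts mainly through the libraries without IFNβ, where it was higher. Its level was 0.636, 0.410 and 0.615 CPM in untreated control, 0.606, 0.171 and 0.627 CPM in eGFP supernatant, 0.202, 0.174 and 0.413 CPM in Ifnb1eGFP supernatant, and 0.178, 0.0450 and 0.253 CPM in rIFNβ. The libraries overlapped in supernatant, where the log2 fold change was -0.80 (SE 0.553), and did not overlap for rIFNβ, where it was -1.82 (SE 0.602). Without eGFP supernatant replicate 2 the former was -1.20. Itgad dropped out of the count of calls for rIFNβ without untreated control replicate 1 (-1.72), untreated control replicate 3 (-1.73), rIFNβ replicate 1 (-1.91) or rIFNβ replicate 2 (-1.34). Itgad spans 4 genes on the opposite strand, Gm39091, 4931431B13Rik, Cox6a2 and Gm44850, and whether the counting used strand is not given. Cox6a2 had 845 counts and Gm44850 had 276, both more than Itgad.

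**Figure D2:**
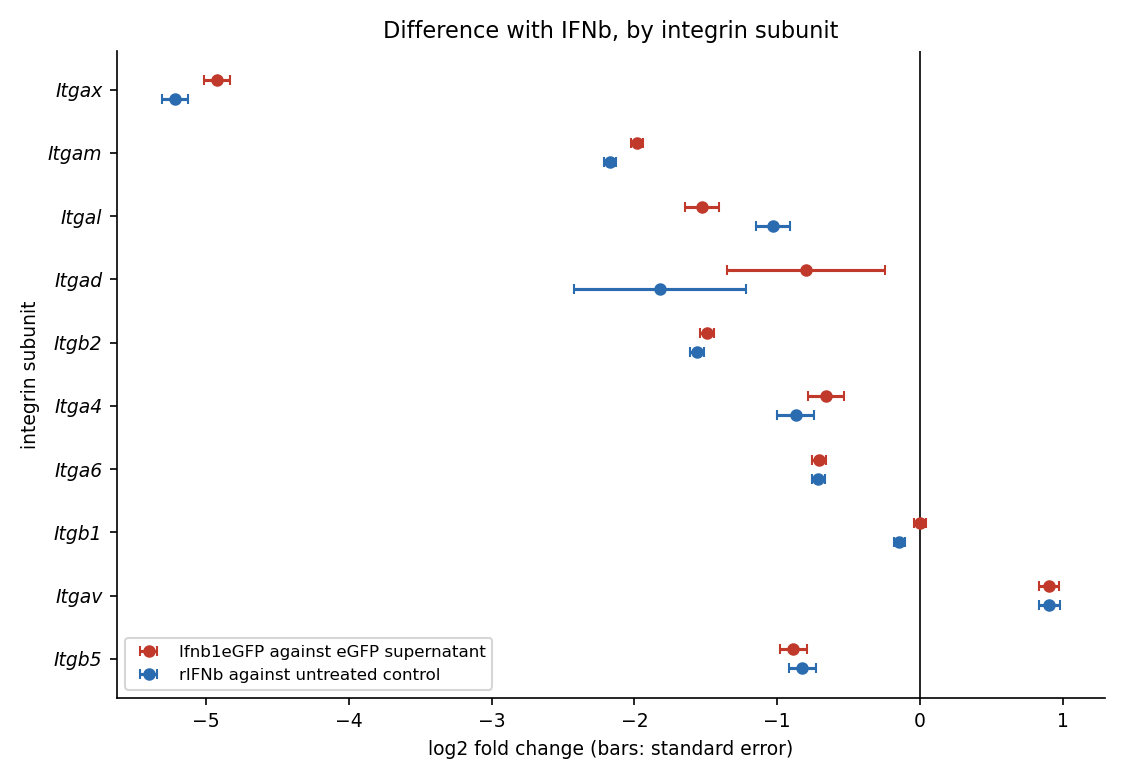
Log2 fold change of each integrin gene, with its standard error, for Ifnb1eGFP against eGFP supernatant (red) and rIFNβ against untreated control (blue). Itgax lies near -5 in both, Itgam near -2, Itgav near 0.9, and Itgad has the widest errors.

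The balance of the beta2 partners was taken from levels per kb of exon, since longer genes gather more reads. In untreated control Itgam made up 60.5% to 61.8% of the summed CPM per kb of the 4 alpha genes and Itgax 37.8% to 39.1%. In eGFP supernatant Itgax made up 33.0% to 34.1%. Its share was 5.27% to 6.75% in Ifnb1eGFP supernatant and 6.14% to 7.43% in rIFNβ, where Itgam made up 92.2% to 93.5% and 90.9% to 92.5%. Itgal was at most 1.59% of the sum and Itgad at most 0.103% in any library.

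Itgb2 was also lower with IFNβ, by less than the sum of its alpha partners. The ratio of the 4 alpha genes together to Itgb2, both in CPM per kb, was 0.529 ± 0.00698 (SD, n = 3) in untreated control, 0.600 ± 0.00948 in eGFP supernatant, 0.304 ± 0.0165 in Ifnb1eGFP supernatant and 0.231 ± 0.00856 in rIFNβ. No 2 conditions overlapped in this ratio. Itgam exceeded Itgax 1.55-fold to 1.64-fold in untreated control and 12.2-fold to 15.1-fold in rIFNβ on this scale. These ratios are built from the same values as the differences above and carry no test.

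**Figure D3:**
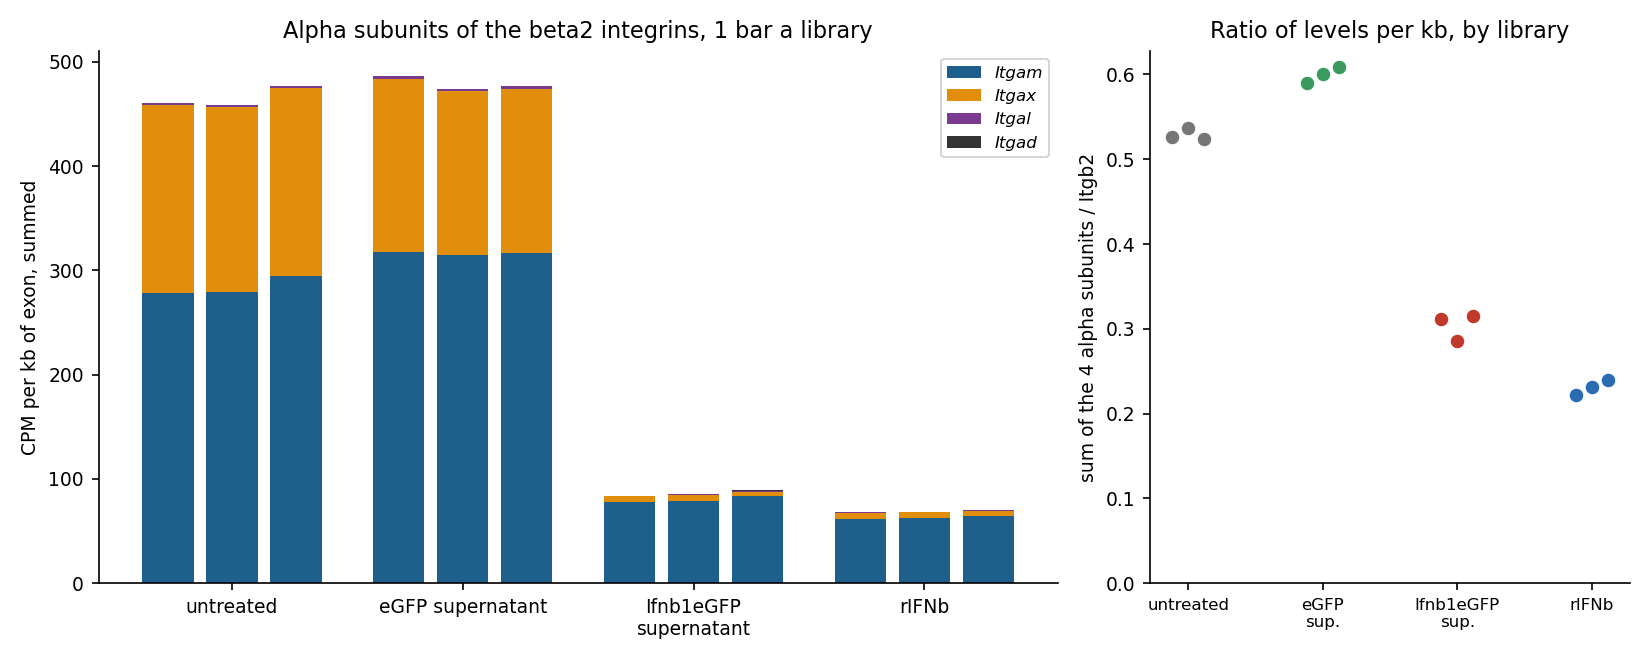
Left, CPM per kb of Itgam, Itgax, Itgal and Itgad stacked for each library, where the orange part (Itgax) shrinks from 33.0% or more of the bar without IFNβ to 7.43% or less with it. Right, the ratio of the 4 alpha genes to Itgb2 on the same scale, between 0.524 and 0.609 in the 6 libraries without IFNβ and between 0.222 and 0.315 in the 6 with it.

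Itgam, Itgax and Itgad lie side by side on chromosome 7, on the plus strand of GRCm39 (127661808 to 127717753, 127728668 to 127749829 and 127753548 to 127822988). The gap between Itgam and Itgax is 10.9 kb and that between Itgax and Itgad 3.7 kb. Itgal (126895432 to 126934320) lies 727 kb before Itgam. The nearest tested gene outside the stretch on the Itgam side, Pycard, had a log2 fold change of 0.14 (SE 0.0564) in supernatant and 0.11 (SE 0.0566) for rIFNβ. On the Itgad side Zfp696 had 0.21 (SE 0.103) and 0.12 (SE 0.104). Of these 4 values the first passed (edgeR, adjusted p = 0.0473) and the other 3 did not (0.110 to 0.351). Within the stretch the minus-strand gene Gm44850 rose, by 0.79 and 0.89 (adjusted p = 0.0274 and 0.0177), and Gm49368 fell by 3.08 and 2.49 (3.71e-07 and 1.63e-06). The lower levels were thus measured for Itgam, Gm49368, Itgax and, for rIFNβ, Itgad, and not for the flanking genes. Beside Itgal, Sephs2 fell by 0.55 and 0.43 (adjusted p = 4.09e-05 and 0.000281), and Zfp768 rose by 0.54 and 0.71 (0.0118 and 0.00235).

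**Figure D4:**
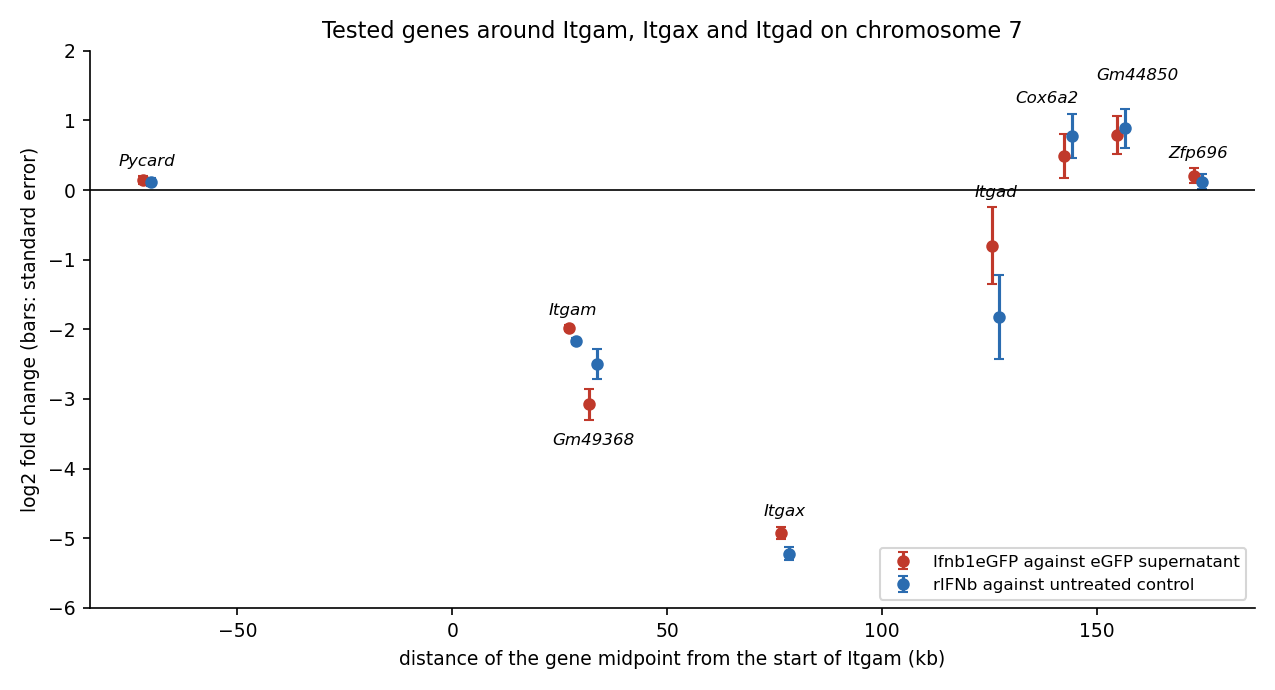
Log2 fold change, with its standard error, of the tested genes around Itgam, Itgax and Itgad, placed by the distance of each gene's midpoint from the start of Itgam in kb. Itgam, Gm49368 and Itgax lie below -1.9 in both comparisons, while Pycard and Zfp696 on either side lie between 0.1 and 0.3.

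The promoters of 3 genes are shown because they stand for the widest difference (Itgax), its neighbour of high level (Itgam) and the gene that moved the other way (Itgav). RefSeq's table (GRCm38.p6) held promoters for 6 of the 10, Itgax, Itgam, Itga4, Itgb1, Itgav and Itgb5, and none for Itgal, Itgad, Itgb2 and Itga6. The 250 bases before each start, all on the plus strand, lie at chr7:128129300-128129549 (Itgax), chr7:128062390-128062639 (Itgam) and chr2:83724147-83724396 (Itgav). Capitals mark a match, on either strand, to any of the 3 motifs searched.
Itgax: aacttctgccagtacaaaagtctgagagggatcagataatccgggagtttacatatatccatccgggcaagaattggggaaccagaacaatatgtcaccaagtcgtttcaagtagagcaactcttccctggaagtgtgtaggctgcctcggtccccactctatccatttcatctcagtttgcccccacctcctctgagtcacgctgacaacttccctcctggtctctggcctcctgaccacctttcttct
Itgam: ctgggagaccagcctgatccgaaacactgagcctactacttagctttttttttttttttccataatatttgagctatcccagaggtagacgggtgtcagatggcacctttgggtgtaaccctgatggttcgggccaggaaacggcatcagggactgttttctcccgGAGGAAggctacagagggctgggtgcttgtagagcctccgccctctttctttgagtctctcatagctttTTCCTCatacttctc
Itgav: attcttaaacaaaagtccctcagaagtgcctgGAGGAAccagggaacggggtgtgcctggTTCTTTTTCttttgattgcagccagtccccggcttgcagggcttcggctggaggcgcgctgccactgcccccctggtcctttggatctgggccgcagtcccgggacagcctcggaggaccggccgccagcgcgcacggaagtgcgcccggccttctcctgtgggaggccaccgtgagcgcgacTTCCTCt

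The motifs were GAAANNGAA, the core of an interferon-stimulated response element, TTCNNNGAA, the core of a gamma-activated site, and GAGGAA, the core of a site for the myeloid factor PU.1. The first was found in 1 of the 6 promoters, that of Itgav (starting 190 bases before the start of the gene, minus strand), and in 7.13% of the 32851 promoters of the same length. The second was in 0 of 6 and in 7.02% of all. The third was in 3 of 6, those of Itgam, Itgav and Itgb1, and in 23.3% of all. Matches are a description of letters and not of binding. Itgax held no match in this window.

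Of the beta1 group, Itga4, the alpha chain of VLA-4, was lower with IFNβ. It stood at 234, 216 and 191.5 CPM in untreated control, 209, 209 and 198 CPM in eGFP supernatant, 159, 116 and 115 CPM in Ifnb1eGFP supernatant, and 131, 116 and 103 CPM in rIFNβ. No library with IFNβ reached one without it, and Ifnb1eGFP replicate 1 was the highest of those with IFNβ. The log2 fold change was -0.66 (SE 0.128) in supernatant, where leaving out a library in turn gave -0.87 to -0.57, and -0.87 (SE 0.129) for rIFNβ.

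Itga6, a laminin receptor chain, was at 162, 161 and 167 CPM in untreated control, 193, 190 and 183.5 CPM in eGFP supernatant, 121.5, 116.5 and 109 CPM in Ifnb1eGFP supernatant, and 98.6, 104 and 97.1 CPM in rIFNβ. Like Itgam, it kept all 4 conditions apart, in the same order. The log2 fold changes were -0.71 (SE 0.0471) and -0.71 (SE 0.0473). Itgb1, the beta chain common to both, hardly differed. Its level was 792, 809 and 780 CPM in untreated control, 829, 810.5 and 797 CPM in eGFP supernatant, 849.5, 789 and 800 CPM in Ifnb1eGFP supernatant, and 713.5, 726 and 716 CPM in rIFNβ. In supernatant the groups overlapped and the log2 fold change was 0.00 (SE 0.0398, 95% confidence interval -0.09 to 0.09). For rIFNβ all 3 libraries were lower, with a log2 fold change of -0.14 (SE 0.0398). Itgb1 dropped out of the count of calls for rIFNβ when the filter on low counts was left out. With Itgb2 lower and Itgb1 close to level, the ratio of Itgb1 to Itgb2 in CPM per kb was 0.144 to 0.172 in the libraries without IFNβ and 0.390 to 0.529 in those with it.

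Itgav, the alphaV chain, was the one gene of the 10 that was higher with IFNβ in both comparisons. It stood at 133, 116 and 123 CPM in untreated control, 139, 135 and 143 CPM in eGFP supernatant, 289, 243 and 247 CPM in Ifnb1eGFP supernatant, and 245, 230 and 223 CPM in rIFNβ. The log2 fold change was 0.90 (SE 0.0732) in supernatant and 0.91 (SE 0.0733) for rIFNβ, 1.87-fold and 1.88-fold higher levels. Its partner Itgb5, with which alphaV binds vitronectin, went the other way. It was at 327, 303 and 341 CPM, 364, 344 and 328 CPM, 161.5, 217.5 and 181 CPM, and 184, 192 and 172.5 CPM in the same order of conditions. The log2 fold change of Itgb5 was -0.89 (SE 0.0951) and -0.82 (SE 0.0950), and no library with IFNβ overlapped with one without.

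In CPM per kb, Itgb2 was the most abundant of the 10 in each condition. In untreated control it stood at 880 ± 28.5 (SD, n = 3), followed by Itgam at 284 ± 9.01, Itgax at 179 ± 1.93, Itgb1 at 133 ± 2.45, Itgb5 at 45.9 ± 2.69, Itga6 at 14.3 ± 0.308, Itga4 at 12.8 ± 1.27, Itgav at 10.1 ± 0.714, Itgal at 1.85 ± 0.103 and Itgad at 0.123 ± 0.0277. No 2 neighbours in that order overlapped between libraries. With the longest transcript as length the values of untreated control were up to 1.68 times as high (Itga4 21.5, Itgav 16.8) and the order did not change. In Ifnb1eGFP supernatant Itgb1 (136 ± 5.41) had passed Itgam (80.0 ± 2.90), and Itgav (21.1 ± 2.06) overlapped with Itgb5 (26.4 ± 4.03). Among all 22 integrin subunits that passed the filter, Itgax took place 3 without IFNβ and place 10 with it, and Itgav took place 10 without and place 6 with it.

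Of the 17 other integrin subunits 12 passed the filter, and 8 of them passed the threshold in each IFNβ comparison, 4 higher and 4 lower, beside 55.1% and 55.3% of all genes. Itgb3, the beta chain of a further alphaV receptor, fell from 120.2 to 134 CPM in untreated control and 121 to 130.4 CPM in eGFP supernatant to 18.4 to 22.1 CPM in Ifnb1eGFP supernatant and 18.9 to 22.6 CPM in rIFNβ, by 2.63 (SE 0.0837, edgeR adjusted p = 8.27e-10) and 2.61 (SE 0.0838, 7.13e-10) on the log2 scale. Itgb3, Itgb5 and Itgb8, 3 of the beta partners of Itgav, were lower with IFNβ, and Itgb6, a further partner, did not pass the filter (0 to 2 counts in a library). The ratio of Itgav to the summed CPM per kb of Itgb3, Itgb5 and Itgb8 was 0.148 to 0.179 in the libraries without IFNβ and 0.577 to 0.914 in those with it. This ratio leaves out Itgb1, also a partner of alphaV and more abundant than each of these 3. In the 4 conditions Itgb1 had means of 133, 136, 136 and 120 CPM per kb. Itgb7, which pairs with alpha4 in place of beta1, rose by 1.34 (SE 0.174, adjusted p = 4.81e-05) and 1.19 (SE 0.174, 0.000122), to 15.7 to 21.1 CPM from 6.23 to 10.0 CPM. Itga5, the fibronectin receptor chain and the second integrin of the study's M1-like list, had log2 fold changes of 0.07 and 0.10 (adjusted p = 0.303 and 0.139).

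The remaining subunits were scarce. Itga1, Itga8 and Itgb8 fell by 2.42, 1.98 and 2.55 in supernatant and by 2.42, 2.23 and 3.85 for rIFNβ, all from means of at most 1.66 CPM, and Itgb8 had 1 to 8 counts in each library with IFNβ. Itga2, Itga3 and Itga9 rose by 2.41, 2.02 and 0.34 and by 2.01, 1.33 and 0.48, with Itga9 alone above 8 CPM on average. The adjusted p of these 6 ran from 1.02e-05 to 0.0319 in edgeR's test. Itga1, Itgb8 and Itga3 passed the filter on low counts only through the conditions where they were higher. In a library they had 20 to 44, 22 to 42 and 2 to 8 counts without IFNβ. With it they had 3 to 9, 1 to 8 and 12 to 21. Itga2b, Itga7 and Itga10 had log2 fold changes from -0.16 to 0.38 and adjusted p from 0.519 to 0.938. The median log2 fold change of the 12 was 0.07 and 0.21, beside 0.03 and 0.04 for all genes.

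Among the adaptors and kinases that work at integrin tails, 31 of 32 passed the filter. Of these, 12 rose and 12 fell in supernatant, and 10 rose and 11 fell for rIFNβ, 24 and 21 in all, beside 55.1% and 55.3% of all genes. The median log2 fold changes were 0.08 and -0.02. Talin 1 (Tln1), which switches integrins on, fell by 1.46 (SE 0.111, edgeR adjusted p = 6.4e-07) and 1.60 (SE 0.111, 2.78e-07), from 2503 to 2823 CPM in untreated control to 788 to 943 CPM in rIFNβ. Vinculin (Vcl), which links talin to actin, fell by 1.77 and 1.96. Fgr, a Src-family kinase of myeloid cells, fell by 1.23 (SE 0.354) and 1.69 (SE 0.356). It was scarce, with means of 1.41, 1.05, 0.446 and 0.444 CPM in the 4 conditions. Higher instead were Lyn, a further Src-family kinase, which rose by 1.94 (SE 0.0554) and 1.93 (SE 0.0555), and Fyb1, an adaptor of integrin activation, which rose by 1.08 and 1.06. Kindlin 3 (Fermt3), the kindlin of blood cells, had log2 fold changes of 0.08 and 0.31 (adjusted p = 0.663 and 0.0794).

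Of 32 listed ligands 26 passed the filter, and 15 of them passed the threshold in each IFNβ comparison, 5 higher and 10 lower, beside 55.1% and 55.3% of all genes. The median log2 fold changes were -0.05 and -0.33. Fibronectin (Fn1) fell most, from 445 to 669 CPM in untreated control and 476 to 522 CPM in eGFP supernatant to 17.1 to 31.1 CPM in Ifnb1eGFP supernatant and 16.9 to 26.3 CPM in rIFNβ, by 4.29 (SE 0.253, edgeR adjusted p = 7.72e-08) and 4.57 (SE 0.257, 4.57e-08). Mfge8, a bridge from dying cells to alphaV integrins, fell by 2.93 and 2.72, osteopontin (Spp1) by 1.36 and 1.37, and the laminin chain Lama3 by 1.51 and 1.80. Jam2, at 3.73 CPM in untreated control, fell by 2.61 and 3.28, and Icam5, at 0.508 CPM there, by 2.47 and 1.86. Icam5 passed the filter on low counts only through libraries without IFNβ (8 to 20 counts, beside 0 to 6 with it). Thrombospondin 1 (Thbs1) rose by 1.45 and 1.29, and Ltbp1, which holds latent TGFβ in the matrix, by 2.03 and 1.83.

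All 12 membrane partners passed the filter, and 9 passed the threshold in supernatant (4 higher, 5 lower) and 10 for rIFNβ (5 higher, 5 lower), beside 55.1% and 55.3% of all genes. The median log2 fold changes were -0.08 and 0.00. The tetraspanin Cd9 fell by 2.31 (SE 0.0583, edgeR adjusted p = 1.9e-10) and 2.53 (SE 0.0588, 1.2e-10), and the urokinase receptor Plaur by 2.16 (SE 0.187) and 2.16 (SE 0.187). Cd47, a partner of beta3 integrins and the ligand of SIRPα, rose by 1.51 (SE 0.0690) and 1.52 (SE 0.0690), and Slc3a2 (CD98), which binds beta1 tails, by 1.12 and 1.08.

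The source of IFNβ was compared at the same concentration, Ifnb1eGFP supernatant against rIFNβ. These conditions also differ in tumor cell products and in Dox carried over, which cannot be told apart here from the source of IFNβ. Of the 10 genes 1 passed the threshold, beside 0.160% of all genes tested (24 genes), and 3 did not overlap between groups, beside 12.8% of all genes. Itgam was higher in supernatant than with rIFNβ, at 397 to 425.5 against 317 to 330.5 CPM, by 0.34 on the log2 scale (SE 0.0409, 95% confidence interval 0.25 to 0.43, edgeR adjusted p = 0.00777), a 1.27-fold higher level seen in 3 of 3 libraries. The call was lost without Ifnb1eGFP supernatant replicate 3 (0.31, adjusted p = 0.0506), without rIFNβ replicate 1 (0.33, 0.0716), without rIFNβ replicate 2 (0.34, 0.0683) and with these 6 libraries alone (0.35, 0.190). Itga6 was higher by 0.21 (0.11 to 0.32, adjusted p = 0.187) and Itgb1 by 0.18 (0.09 to 0.26, 0.199), both without overlap and short of the threshold, although DESeq2 called both (0.00118 and 0.00291) among 115 genes. The other 7 had log2 fold changes from -0.07 to 0.77 and adjusted p from 0.581 to 0.945. For Itgax the interval was -0.04 to 0.30, and for Itgad, with its few counts, -0.64 to 2.18, so that equal levels are not shown.

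Supernatant of eGFP cells was compared with untreated control, where tumor cell products and Dox carried over cannot be told apart. None of the 10 passed the threshold in edgeR's test (0.299% of all genes did, 45 genes). At an unadjusted p under 0.05 there were 5 of 10 (1203 of all 15033 genes), and DESeq2 called 3 (204 of all genes), namely Itgam (0.16, adjusted p = 0.0231), Itgal (0.47, 0.0232) and Itga6 (0.21, 0.00239). In 6 of 10 genes the 3 libraries with eGFP supernatant did not overlap with the 3 without (15.5% of all genes), 4 higher (Itgam, Itgal, Itga6 and Itgav) and 2 lower (Itgax and Itgb2). Itgal had the largest of these differences, 0.47 (SE 0.115, interval 0.21 to 0.72, edgeR adjusted p = 0.177). Itgam and Itga6 had 0.16 (0.07 to 0.25, adjusted p = 0.212) and 0.21 (0.11 to 0.31, 0.125), and Itgax and Itgb2 had -0.16 (-0.33 to 0.00, 0.624) and -0.14 (-0.24 to -0.03, 0.393). Itgb1 had 0.03 (-0.05 to 0.12). Without eGFP supernatant replicate 2 none of the 10 was called either, Itgal had 0.48, and Itgad turned from -0.25 to 0.15.

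Thbs1 was the one listed gene outside the 10 that passed in both supernatant comparisons, which share no library, at 610 to 705 against 276.5 to 347 CPM with IFNβ (1.05, SE 0.136, edgeR adjusted p = 0.0105) and at 213.5 to 250 against 98.8 to 148 CPM without it (0.89, SE 0.136, 0.0217). It was lost without eGFP supernatant replicate 1, 2 or 3 or untreated control replicate 3 in the latter comparison, and without Ifnb1eGFP replicate 3 or rIFNβ replicate 1 or 2 in the former.

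**Figure D5:**
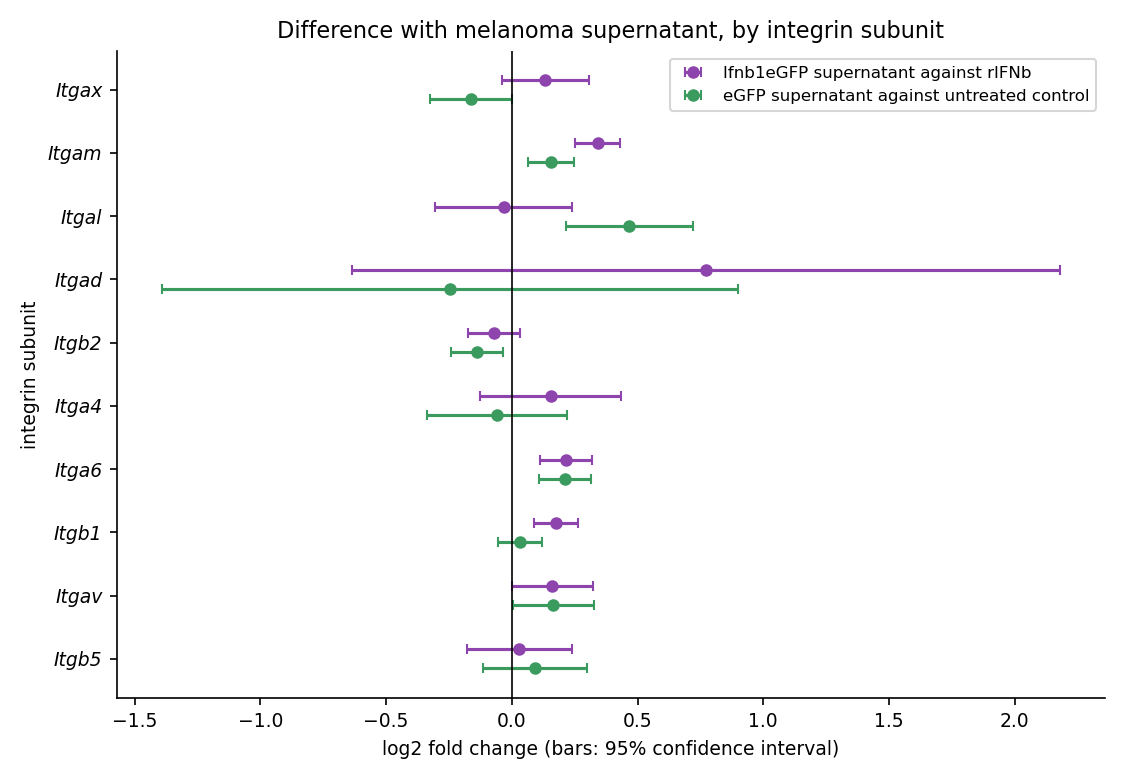
Log2 fold change of each integrin gene with its 95% confidence interval, for Ifnb1eGFP supernatant against rIFNβ (purple) and eGFP supernatant against untreated control (green). The intervals, not adjusted over genes, of Itgam, Itga6 and Itgav lie above 0 in both. Those of Itgav start at 0.002 and 0.004 (edgeR adjusted p = 0.581 and 0.609), and those of Itgad span from -1.39 to 2.18.

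Whether the difference with IFNβ depended on supernatant was tested as an interaction. None of the 10 genes, and 0 of all 15033 genes (0%), passed in edgeR's test, with 661 genes and 4 of the 10 at an unadjusted p under 0.05, and DESeq2 called 9 genes, none of the 10. The 4 were Itgax (0.30, interval 0.06 to 0.53), Itgam (0.19, 0.06 to 0.31), Itgal (-0.50, -0.87 to -0.13) and Itgb1 (0.14, 0.02 to 0.27), each with an adjusted p of 0.926 over all genes. For Itgav the difference between both IFNβ differences was 0.00 (-0.23 to 0.22) and for Itga6 0.00 (-0.14 to 0.15). The intervals for Itga4 (-0.18 to 0.61) and Itgad (-0.80 to 2.83) leave room for larger differences.

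The genes whose pattern over the 12 libraries was most like each integrin's were sought among 8317 genes with a mean of at least 10 CPM, by the root mean square difference of centred log2 CPM. A small constant was added to each CPM before the log. Among the genes near to Itgax was Mmp9 (0.263), with log2 fold changes of -5.09 and -5.32. Nearest to Itgam were Dbi (0.097) and Fdft1 (0.099), to Itgb2 Ss18l2 (0.0383) and Atp6v0a1 (0.0558), and to Itgal Polr3g and Tifab (both 0.175). Itgb1 was most like Stt3a and Stx12 (both 0.0284), Itga4 like Atp13a3 (0.0834) and Dnajb14 (0.0888), and Itga6 like Ddx3x (0.0647) and Adgrl2 (0.0750). Itgav was most like Fam3c (0.0598) and Ints6 (0.0634), and Itgb5 like Slc22a4 (0.0733) and Esyt1 (0.0760). For Itgad the nearest, Dpm1 (0.210) and Pros1 (0.220), lay farther off than the nearest gene of 8 of the other 9, and its own level rests on few counts. The added constant flattens the pattern of so scarce a gene, and its distances depend on it. Dpm1 had log2 fold changes of -0.403 and -0.677 and Pros1 of -0.435 and -0.525, beside -0.80 and -1.82 for Itgad. The distances are a description, with no test.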

How the data were processed

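RNA of M2-like BMDM (600 ng per library) was sequenced by the authors as stranded total RNA libraries. The deposited values are expected counts per Ensembl gene from RSEM (v1.3.3), neither normalized nor filtered by the authors. The build is named as GRCm39 and mm10, which are different builds, and positions given here are those of GRCm39 (GENCODE M39). Whether counting used strand is not given in the sources used here.

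Expected counts were rounded, since 12% differed from a whole number by any amount as deposited. Of 56748 genes 15033 passed filterByExpr (edgeR 4.0.16, R 4.3.3) and were scaled by TMM and fitted in 1 quasi-likelihood model over all 12 libraries. P-values were adjusted by Benjamini-Hochberg over all genes tested and called at 0.05. SE is the absolute log2 fold change over the root of F, and n = 3 per condition. CPM are TMM-scaled, and CPM per kb uses the union of exons. DESeq2 (1.42.0 here, the tool the authors used in another version) was an alternative, as were RLE factors, no filter, a replicate block, the compared libraries alone and leaving out each library. The model was also run on simulated data with 200 changed genes, far fewer than were called in either IFNβ comparison. That run does not show how the scaling and the test behave where so many genes differ. The 10 genes and all lists were chosen with earlier results of these data known. Named besides the 10 were list genes called in both IFNβ comparisons with a log2 fold change of 1 or more in size in both, list genes called in another comparison, all other integrin subunits tested, neighbouring genes, the 2 most alike genes each, and markers. Fermt3 was named after its values were seen. One of the most alike genes is not reported here.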

Additional observations from a re-analysis of the deposited data

How the results depend on the processing

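With 3 libraries a condition, values near 0 and scarce genes depended on the setting. Of the 839 alternative values of the 10 genes' log2 fold changes, 790 kept their direction and their side of the threshold, 9 lost the call, 8 gained it and 32 changed sign, all 32 for genes without a call. These counts are a description, since the genes were chosen with the IFNβ differences known. The cause was not tested for any of them. The order of the levels per kb was tried with another length in untreated control alone, where it did not change.

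For Ifnb1eGFP against eGFP supernatant the log2 fold change of Itgb1 turned to -0.034 with DESeq2, -0.034 with RLE factors, -0.020 without the filter and -0.001 with the compared libraries alone, and ran from -0.070 to 0.023 when leaving out each library. In the interaction Itga6 turned to -0.019 without the filter, and Itgav to 0.009 with DESeq2 and with RLE factors. Leaving out each library in turn gave sign changes for Ifnb1eGFP supernatant against rIFNβ in Itgal (-0.146 to 0.107), Itga4 (-0.014 to 0.247) and Itgb5 (-0.094 to 0.126), for eGFP supernatant against untreated control in Itgad (-0.516 to 0.154) and Itga4 (-0.132 to 0.010), and for the interaction in Itga6 (-0.026 to 0.046), Itgav (-0.081 to 0.044) and Itgb5 (-0.186 to 0.037).

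Counts of calls between supernatant and its controls moved most. For Ifnb1eGFP supernatant against rIFNβ, 24 genes became 115 with DESeq2, 41 without the filter and 2 with the compared libraries alone, and 4 to 1051 when leaving out each library, the highest without Ifnb1eGFP supernatant replicate 2. The 1 integrin gene became 3 with DESeq2, 0 with the compared libraries alone, and 0 to 3 when leaving out each library. The 1 listed gene outside the 10 became 0 with the compared libraries alone, 0 with 0.01 as threshold, and 0 to 6 when leaving out each library. For eGFP supernatant against untreated control, 45 genes became 204 with DESeq2, 75 without the filter and 22 with the compared libraries alone, and 16 to 76 when leaving out each library, the lowest without eGFP supernatant replicate 2. The 0 integrin genes became 3 with DESeq2 and 0 to 1 when leaving out each library, and the 1 listed gene 4 with DESeq2, 2 without the filter, 0 with the compared libraries alone or at 0.01, and 0 to 1 when leaving out each library. The interaction went from 0 genes to 9 with DESeq2 and 1 without the filter.

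A replicate block was run because the labels share the numbers 1 to 3. Libraries of the same number deviated together with r of -0.0157 to 0.470 over 18 pairs (mean 0.247). Those of different numbers had -0.438 to 0.249 over 36 (mean -0.124). Deviations were taken from the mean of the condition, so that those of its 3 libraries sum to 0. The mean for different numbers thus follows from that for the same number and is no second observation. The mean for libraries of the same number was above 0, and an origin shared by them is not excluded. The main fit did not take the numbers as pairs, since the labels do not explain them and not all same-number pairs passed 0.1. With the replicate block 8867, 8846, 48, 122 and 0 genes were called in the 5 comparisons, beside 8281, 8313, 24, 45 and 0 in the main fit. Of the 10 integrin genes 8, 10, 1, 0 and 0 were called, so that the block changed no count for the 10. The listed genes outside them became 3 for Ifnb1eGFP supernatant against rIFNβ and 3 for eGFP supernatant against untreated control.

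With the longest transcript as length, the level in untreated control was 212 CPM per kb for Itgax, 304 for Itgam, 2.32 for Itgal, 914 for Itgb2, 21.5 for Itga4, 23.5 for Itga6, 154 for Itgb1, 16.8 for Itgav and 68.5 for Itgb5.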
